A study of Homo sapiens with 9 samples.

Results

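The transcripts described here encode 10 proteins of RNA editing and of the microRNA pathway: the adenosine deaminases ADAR and ADARB1, the nuclease DROSHA, the export receptor XPO5, the nuclease DICER1, the Argonautes AGO1, AGO2, AGO3 and AGO4, and the scaffold TNRC6A. They were taken by name, with every probe set that the platform's probe table assigns to a single symbol. That gave 10 of 19775 genes and 35 of 41097 single-symbol probe sets, and 26 of the 35 passed the filter on low signal. All 10 genes had at least 1 probe set that passed. RNA was measured on 9 Affymetrix arrays from U87, an established human glioma cell line, 72 h after transfection with 50 nM of a microRNA duplex in Lipofectamine RNAiMAX. There were 3 arrays for miR-376a*A, the unedited form of a microRNA, 3 for miR-376a*G, its edited form, and 3 for a control duplex. All groups were the same unmodified line, grown in supplemented DMEM and transfected in PS-free DMEM, and an untransfected group was not analysed here. The labels call the replicates biological but do not say which cultures or days they came from, so p-values measure the spread between these arrays. Each form was set against the control duplex, which was transfected too, and the forms were also set against each other.

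ADAR and ADARB1 convert adenosine to inosine in double-stranded RNA, and inosine pairs like guanosine, so an edited microRNA can hold a changed seed. A primary microRNA transcript is cut in the nucleus by DROSHA, carried to the cytoplasm by XPO5, cut again by DICER1 and loaded into an Argonaute, which TNRC6A joins to the enzymes that shorten and uncap messenger RNA. A transfected duplex enters this route at the loading step. In brain, microRNAs of the miR-376 family are known as substrates of both deaminases.

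The mature sequences of the transfected microRNA's family are shown as background to its 2 forms. Of this family only forms of miR-376a* were transfected, and editing was not measured. The name miR-376a* is the older one for the 5p arm of miR-376a. The sequences are RefSeq's (GRCh38.p14), with the seed, bases 2 to 8, in capitals; all come from the plus strand of chromosome 14, and the labels give neither the sequences of the duplexes nor the edited base. RefSeq holds 2 different 5p arms for the 2 copies of miR-376a, at chr14:101040788-101040809 and chr14:101040080-101040100.
hsa-miR-376a-5p: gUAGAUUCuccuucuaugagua
hsa-miR-376a-2-5p: gGUAGAUUuuccuucuauggu
hsa-miR-376b-5p: cGUGGAUAuuccuucuauguuu
hsa-miR-376c-5p: gGUGGAUAuuccuucuauguu
hsa-miR-376a-3p: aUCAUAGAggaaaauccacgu
The 5p arms of miR-376b (chr14:101040459-101040480) and miR-376c (chr14:101039694-101039714) share the seed GUGGAUA, and no listed 5p arm shares the seed of either miR-376a copy. The 3p arm of miR-376a is the same at both copies. It shares its seed with miR-376b-3p, and not with any of the 5p arms.

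Signals below are the authors' linear intensities, each relative to the rest of its array. They were compared as log2(signal + 1), which understates changes of dim probe sets. A gene was called changed in a comparison when its two-sided adjusted p from limma over 12587 tested genes was under 0.05, and it is represented by its probe set with the highest mean log2 signal. Statements on other probe sets come from the same model over 24316 tested probe sets. Because RNA came from whole cultures, fewer cells expressing a transcript and less transcript per cell cannot be told apart.

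Before the results, 2 arrays need mention. Replicate 1 of miR-376a*A, as labelled, was closest to control replicates 2 and 3 (Pearson's r of 0.987 and 0.990 across tested genes) and further from its own group's replicates 2 and 3 (r of 0.925 and 0.934). Replicate 1 of control, as labelled, was closest to miR-376a*A replicates 2 and 3 (r of 0.990 and 0.982) and further from its own group's replicates 2 and 3 (r of 0.935 and 0.934). Both arrays go against their labels, so counts and calls of the members are given on all 9 arrays as labelled and on the 7 arrays without this pair, which leaves 2 arrays each for miR-376a*A and for control. The pair was chosen from the data, so p-values on 7 arrays are not independent of that choice. The miR-376a*G arrays resembled each other (r of 0.986 to 0.988), but they also differed in technical values. Mean log2 signal of 18 hybridisation control probe sets was 7.12 to 7.29 on miR-376a*G arrays, against 7.82 to 7.92 on those labelled miR-376a*A and 7.51 to 7.70 on those labelled control. Median array signal was 21.7 to 24.6 for miR-376a*G, 18.0 to 21.1 for miR-376a*A and 18.5 to 22.0 for control. The difference between miR-376a*G and control had a median of 0.12 in log2 over all genes. The glioma and mesenchymal marker list was tested in full (6 of 6), with VIM at 2107 to 2975 and CD44 at 1475 to 2193. NES was the dimmest of that list, at 32.4 to 61.6. Of the astrocyte list 2 of 6 were tested, SLC1A3 at 138 to 374 and ALDH1L1 at 24.0 to 43.6, while GFAP, at 1.48 to 5.66, AQP4, SLC1A2 and S100B did not pass the filter. Of the neuron list 4 of 6 were tested, without RBFOX3 and DCX, and the summed signal of the 6 was 2459 to 3907 for miR-376a*A, 2167 to 2362 for miR-376a*G and 2298 to 3435 for control. Of the oligodendrocyte, endothelial, epithelial and leukocyte lists 1 or 2 genes each were tested.

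Of the editing enzymes, ADAR, the widely expressed deaminase with a constitutive and an interferon-inducible start, was the member with the most negative difference between miR-376a*G and control. Its 1 probe set, on a chromosome 1 gene, read 597, 536 and 509.6 on replicates 1, 2 and 3 of miR-376a*A. It read 227, 251 and 250.2 on the miR-376a*G arrays, and 468, 634 and 504 on those labelled control. Every miR-376a*G array lay below every other array, while miR-376a*A and control overlapped.

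Group means for ADAR were 548 ± 44.9 for miR-376a*A, 243 ± 14.05 for miR-376a*G and 536 ± 87.1 for control (SD, n = 3 arrays each). ADAR fell in miR-376a*G by 1.13 in log2 (SE 0.13, limma adjusted p = 0.000317), to 0.458 times the control level. It was higher in miR-376a*A than in miR-376a*G by 1.17 (adjusted p = 0.000233). On 7 arrays these differences were -1.22 (adjusted p = 3.93e-06) and 1.11 (adjusted p = 5.52e-06). The difference between miR-376a*A and control was 0.04 (95% interval -0.26 to 0.34, adjusted p = 0.951), and -0.11 on 7 arrays (adjusted p = 0.467). The probe set does not tell the transcripts from the different starts apart.

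ADAR's start windows (250 bases before to 50 after, RefSeq, GRCh38.p14, minus strand of chromosome 1) are shown as the promoters of the member with the most negative difference between miR-376a*G and control. The windows printed are chr1:154627948-154628247 (upstream start) and chr1:154608748-154609047 (downstream start). CCAAT or its complement ATTGG is in capitals.
ADAR upstream start: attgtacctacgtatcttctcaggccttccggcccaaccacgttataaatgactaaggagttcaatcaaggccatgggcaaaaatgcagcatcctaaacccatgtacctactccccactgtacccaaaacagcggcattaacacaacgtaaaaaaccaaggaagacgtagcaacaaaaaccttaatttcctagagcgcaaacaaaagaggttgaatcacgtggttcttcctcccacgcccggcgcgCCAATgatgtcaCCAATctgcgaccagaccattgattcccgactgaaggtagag
ADAR downstream start: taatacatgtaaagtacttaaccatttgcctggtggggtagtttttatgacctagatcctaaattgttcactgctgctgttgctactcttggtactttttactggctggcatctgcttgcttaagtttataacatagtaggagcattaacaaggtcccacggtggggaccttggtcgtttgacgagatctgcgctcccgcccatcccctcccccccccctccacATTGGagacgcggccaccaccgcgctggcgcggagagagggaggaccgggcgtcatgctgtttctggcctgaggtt
There were 18 such RefSeq windows for 9 members, some of them overlapping, and AGO2 had none here. Searched on both strands, CCAAT was in 8 of the 18 windows (5 genes) and in 34.6% of 35116 windows of all genes. GGGCGG was in 12 of the 18 (8 genes) and in 45.0% of all windows. The letters CACGTG were in 2 of the 18, which are overlapping windows of ADAR's upstream start, and in 7.26% of all. A form of the interferon response element, 2 copies of GAAA spaced by 2 bases of any kind, was in 0 of the 18 and in 3.57% of all windows. These counts describe letters in short windows.

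ADARB1, the deaminase of many brain transcripts, had 5 probe sets, of which 2 passed the filter and differed in direction. The set that represents the gene read 14.5, 28.9 and 28.1 for miR-376a*A, 42.4, 37.2 and 34.4 for miR-376a*G, and 29.2, 30.2 and 17.4 for control. All miR-376a*G arrays lay above the rest, and miR-376a*A and control overlapped. The difference between miR-376a*G and control was 0.59 (SE 0.31, adjusted p = 0.178), and 0.70 on 7 arrays (adjusted p = 0.0331). Between the 2 forms (miR-376a*A minus miR-376a*G) it was -0.71 (adjusted p = 0.102). The other tested set, 203865_s_at, was dim and lay above the array median on 3 arrays only. It read 23.4, 19.3 and 17.9 for miR-376a*A, 3.40, 8.29 and 10.9 for miR-376a*G, and 14.03, 23.1 and 22.3 for control. There the difference between miR-376a*G and control was -1.37 (adjusted p over probe sets = 0.0264). The arrays above the median were miR-376a*A replicate 1 and control replicates 2 and 3. This set passed the filter only through arrays outside miR-376a*G, so its call is no support for a fall. No direction can be given for ADARB1 from probe sets that disagree.

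DROSHA, the nuclease that crops primary microRNAs, read 237, 211 and 246 for miR-376a*A, 277, 286 and 270.2 for miR-376a*G, and 189.8, 217 and 207 for control. Its miR-376a*G arrays were the highest of the 9, and miR-376a*A overlapped with control. Means were 231 ± 18.1 for miR-376a*A, 278 ± 7.99 for miR-376a*G and 205 ± 13.9 for control (SD, n = 3). DROSHA rose in miR-376a*G by 0.44 over control (SE 0.11, adjusted p = 0.0144), and by 0.39 on 7 arrays (adjusted p = 0.00473). Its call rested on each of 2 arrays: the adjusted p was 0.0519 without miR-376a*G replicate 1 and 0.0561 without miR-376a*G replicate 2. With arrays centred on their medians the difference was 0.20 (adjusted p = 0.428). Between the 2 forms (miR-376a*A minus miR-376a*G) it was -0.27 (adjusted p = 0.0866), and -0.29 on 7 arrays (adjusted p = 0.0212).

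XPO5, which carries precursor microRNAs out of the nucleus, had 3 probe sets, all tested and all higher on average in miR-376a*G than in control. The representative set read 51.1, 65.6 and 75.9 for miR-376a*A, 77.7, 82.6 and 85.9 for miR-376a*G, and 69.7, 43.3 and 56.5 for control. The miR-376a*G arrays lay above all others, and the arrays labelled miR-376a*A and control overlapped. Against control the difference in miR-376a*G was 0.56 (SE 0.21, adjusted p = 0.0686). Leaving out replicate 1 of control gave 0.72 (adjusted p = 0.0264), and leaving out replicate 1 of miR-376a*A gave 0.56 (adjusted p = 0.0424). Leaving out any other single array kept XPO5 uncalled, with adjusted p from 0.0699 to 0.2155. The highest came without control replicate 2, where the difference was 0.38. On 7 arrays it was 0.72 (adjusted p = 0.00232). Of the other sets, 223057_s_at differed by 0.56 (adjusted p = 0.0315) and 223055_s_at by 0.52 (adjusted p = 0.0585). In miR-376a*A against control XPO5 was not called on 9 arrays (0.19, adjusted p = 0.886), and was called on 7 arrays (0.50, adjusted p = 0.033).

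DICER1, which cuts the hairpin precursor to the mature duplex, read 463, 445 and 487 for miR-376a*A, 316, 338 and 327 for miR-376a*G, and 468, 456 and 444 for control. The miR-376a*G arrays lay well below the other 6, which overlapped. Means were 465 ± 21.1 for miR-376a*A, 327 ± 11.2 for miR-376a*G and 456 ± 12.1 for control (SD, n = 3). DICER1 fell in miR-376a*G by 0.48 (SE 0.09, adjusted p = 0.00369), to 0.718 times control, and was higher in miR-376a*A than in miR-376a*G by 0.51 (adjusted p = 0.00248). On 7 arrays the differences were -0.46 (adjusted p = 0.000623) and 0.51 (adjusted p = 0.000237). For miR-376a*A minus control it was 0.03 (95% interval -0.18 to 0.23, adjusted p = 0.951).

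The brighter DICER1 probe sets gave like values, and the dim ones did not. 213229_at fell by 0.49 in miR-376a*G against control (adjusted p = 0.0062), and 206061_s_at fell by 0.46 (adjusted p = 0.0292). The dim set 216260_at, at 15.5 to 25.4, differed by 0.15 (adjusted p = 0.666). With the mean over all 6 sets, 3 of them dim, the difference was 0.13 (adjusted p = 0.49). When arrays were scaled to the hybridisation controls, which were lower on the miR-376a*G arrays, the difference was -0.08 (adjusted p = 0.571). The same scaling moved the median of all genes to 0.51, so DICER1 stayed below that median.

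**Figure D1:**
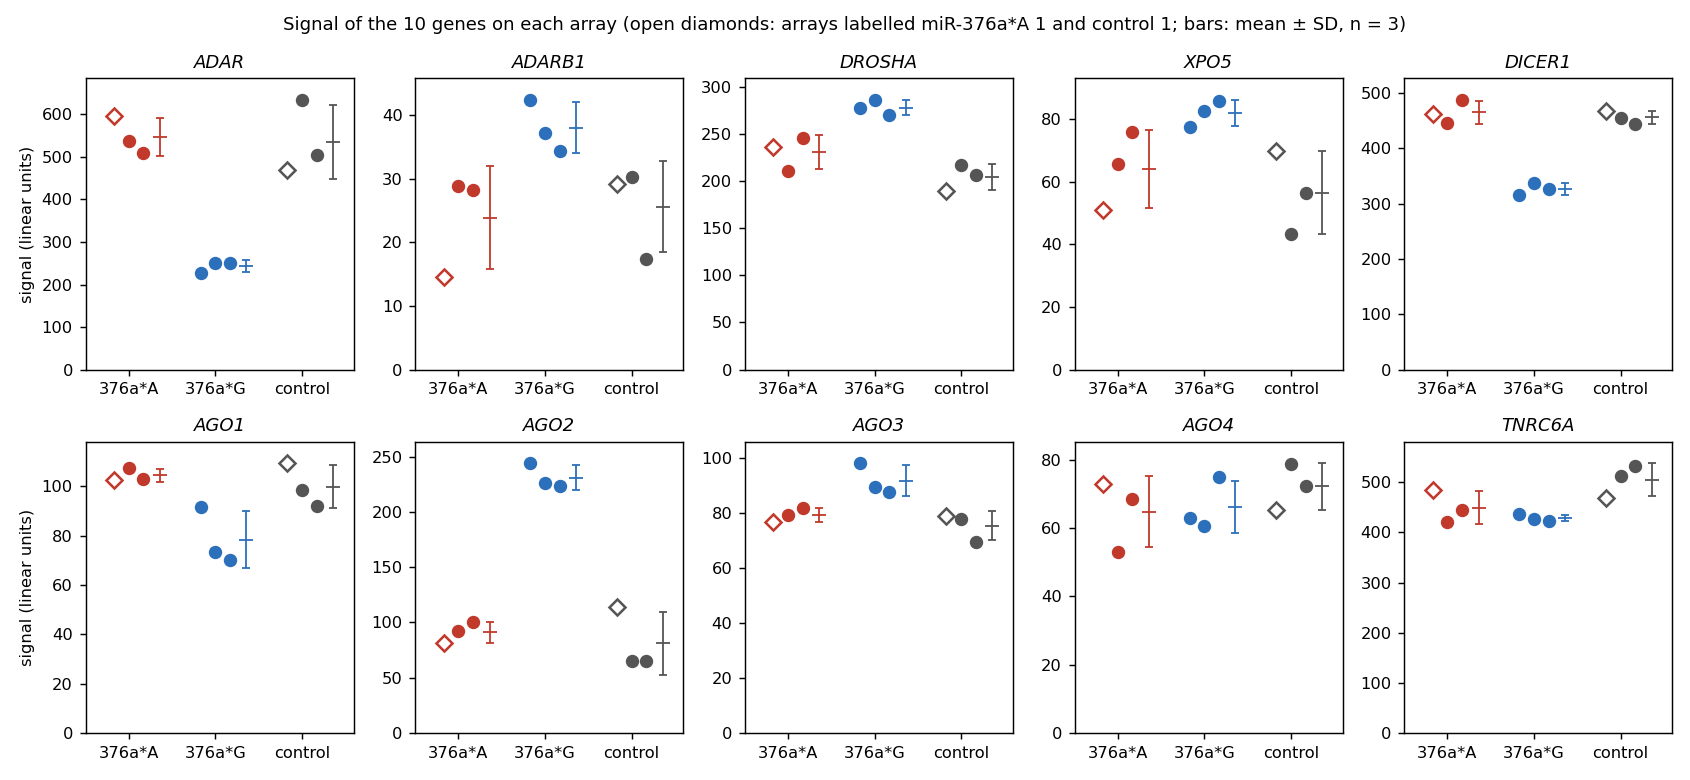
Signal (linear units, axes from 0) of the representative probe set of each of the 10 genes on each array, in the groups miR-376a*A, miR-376a*G and control; points are arrays, open diamonds the pair that stood apart (replicate 1 of miR-376a*A and of control), and bars the mean ± SD (n = 3). The 3 miR-376a*G arrays lie below all others for ADAR, DICER1 and AGO1 and above all others for ADARB1, DROSHA, XPO5, AGO2 and AGO3.

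The Argonautes differed among themselves. AGO2, the human Argonaute that slices its target, had the highest difference between miR-376a*G and control of the 10 genes. Its 1 single-symbol probe set, 225827_at, read 81.3, 92.5 and 100.2 for miR-376a*A, 244, 226 and 223 for miR-376a*G, and 114, 64.8 and 65.1 for control. All miR-376a*G arrays were far above the others. The highest control was replicate 1, and without it miR-376a*A and control would not overlap.

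AGO2 means were 91.3 ± 9.51 for miR-376a*A, 231 ± 11.2 for miR-376a*G and 81.4 ± 28.5 for control (SD, n = 3). AGO2 rose in miR-376a*G by 1.55 over control (SE 0.22, adjusted p = 0.000776), to 2.92 times its level, and by 1.82 on 7 arrays (adjusted p = 2.19e-07). For miR-376a*A minus miR-376a*G the difference was -1.33 (adjusted p = 0.0015), and -1.25 on 7 arrays (adjusted p = 1.8e-06). For miR-376a*A against control it was 0.21 (95% interval -0.28 to 0.70, adjusted p = 0.886) on 9 arrays and 0.56 (adjusted p = 0.00238) on 7.

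The probe table lists 3 more probe sets under both AGO2 and CASC7, a symbol that RefSeq now gives as an older name of AGO2. They are not counted among the 35, and 2 of them passed the filter. 225569_at read 98.2, 215 and 187 for miR-376a*A, 251, 248 and 255 for miR-376a*G, and 201, 123 and 129 for control. Again the miR-376a*G arrays were highest, but by less than for 225827_at. Its difference between miR-376a*G and control was 0.77 (adjusted p = 0.0725), and 0.99 on 7 arrays (adjusted p = 1.07e-05). For 213310_at it was 0.54 (adjusted p = 0.202), and 0.73 on 7 arrays (adjusted p = 0.00346). In miR-376a*A against control, 225569_at differed by 0.10 (adjusted p = 0.946) on 9 arrays and by 0.66 (adjusted p = 0.000582) on 7. The AGO2 call on 9 arrays therefore rests on 225827_at, and which transcript each probe set reads was not tested.

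AGO1, AGO3 and AGO4, which load microRNAs with little or no slicing, lie side by side on chromosome 1 with 0 protein-coding genes between them in RefSeq's order. AGO1 read 103, 108 and 103 for miR-376a*A, 91.5, 73.5 and 70.01 for miR-376a*G, and 109, 98.5 and 92.0 for control. The miR-376a*G arrays were lowest, though its first array was close to the lowest control. The difference between miR-376a*G and control was -0.35 (SE 0.14, adjusted p = 0.0858), and for miR-376a*A minus miR-376a*G 0.42 (adjusted p = 0.0439; 0.0197 on 7 arrays).

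The AGO1 call between the forms was fragile. Leaving out any array labelled miR-376a*A, miR-376a*G replicate 2 or 3, or control replicate 2 or 3 took the adjusted p above 0.05, with values of 0.0581 to 0.152. Another probe set, 218287_s_at, read 119.9, 78.5 and 105 for miR-376a*A, 58.7, 53.1 and 60.6 for miR-376a*G, and 82.5, 120.1 and 113 for control. It fell in miR-376a*G by 0.85 against control (adjusted p = 0.011) and by 1.01 on 7 arrays (adjusted p = 0.000182). The set 222576_s_at pointed the other way, with 0.43 (adjusted p = 0.227) for miR-376a*G minus control and -0.78 (adjusted p = 0.0395) for miR-376a*A minus miR-376a*G. The direction of AGO1 therefore depends on the probe set.

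AGO3 read 76.6, 79.0 and 81.6 for miR-376a*A, 97.9, 89.2 and 87.4 for miR-376a*G, and 78.6, 77.9 and 69.2 for control. The miR-376a*G arrays were highest, by a small margin. The difference from control was 0.28 (SE 0.12, adjusted p = 0.11), and 0.31 on 7 arrays (adjusted p = 0.051). The set 235782_at shows the pair of arrays that stood apart most plainly: 61.8, 37.7 and 38.2 for miR-376a*A, 46.4, 56.2 and 48.5 for miR-376a*G, and 35.7, 68.6 and 64.9 for control. On 9 arrays its miR-376a*A minus control difference was -0.27 (adjusted p = 0.899), and on 7 it was -0.80 (adjusted p = 0.00291). For miR-376a*G minus control 235782_at gave -0.11 (adjusted p = 0.798), and -0.40 on 7 arrays (adjusted p = 0.041). On 9 arrays 241091_at gave -0.018 (adjusted p = 0.962) and 228932_at 0.31 (adjusted p = 0.277). The direction of AGO3 thus also depends on the probe set. AGO4 read 72.9, 53.0 and 68.6 for miR-376a*A, 63.1, 60.8 and 74.9 for miR-376a*G, and 65.4, 79.0 and 72.4 for control. Its groups all overlapped, and it was the only member whose miR-376a*G and control arrays overlapped. The difference between miR-376a*G and control was -0.12 (95% interval -0.50 to 0.25, adjusted p = 0.597). The other tested AGO4 set, 219190_s_at, gave 0.29 (adjusted p = 0.273).

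**Figure D2:**
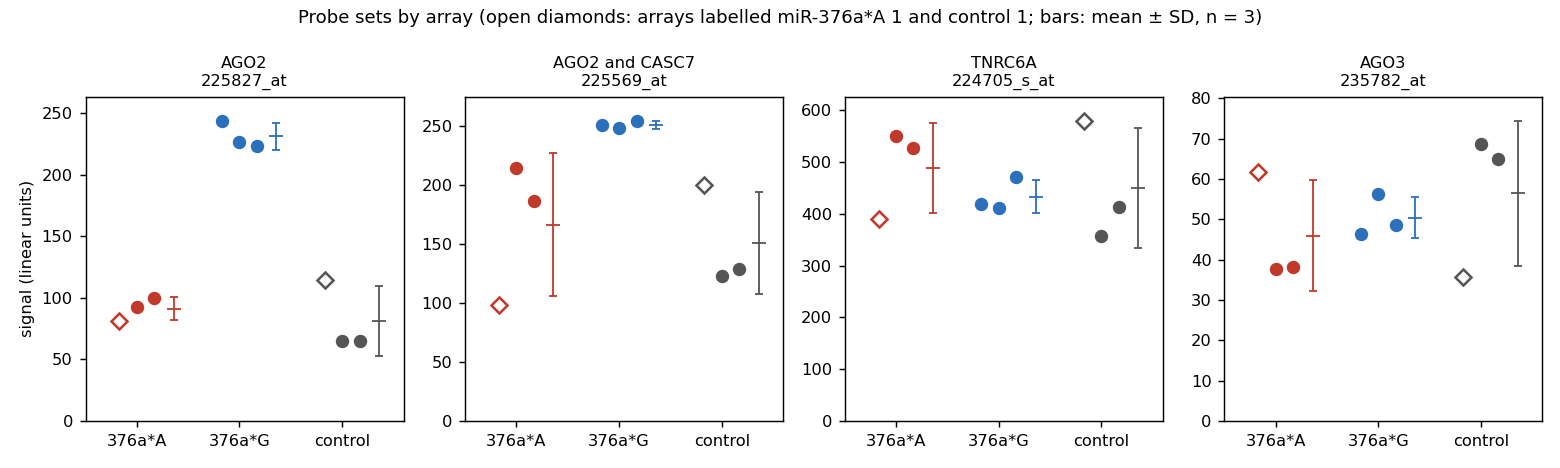
Signal (linear units, axes from 0) of 4 probe sets on each array; points are arrays, open diamonds the pair that stood apart (replicate 1 of miR-376a*A and of control), and bars the mean ± SD (n = 3). For 225569_at, 224705_s_at and 235782_at the diamond labelled miR-376a*A lies beside the filled control points and the diamond labelled control beside the filled miR-376a*A points; the miR-376a*G arrays of 225827_at, at 223 to 244, are above all others.

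TNRC6A, the GW182 protein that links Argonautes to the deadenylases, had 5 tested probe sets of 6. The representative set read 485, 420.005 and 444 for miR-376a*A, 436, 427 and 424 for miR-376a*G, and 469, 513 and 533 for control. The miR-376a*G arrays lay below control and inside the range of miR-376a*A. The difference between miR-376a*G and control was -0.23 (SE 0.10, adjusted p = 0.0983), and -0.29 on 7 arrays (adjusted p = 0.00751). For miR-376a*A against control it was -0.17 (adjusted p = 0.886) on 9 arrays and -0.27 (adjusted p = 0.02) on 7.

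Another TNRC6A set did not follow it. 224705_s_at read 389.96, 549.96 and 526 for miR-376a*A, 419, 410.4 and 470.1 for miR-376a*G, and 579.8, 357 and 413 for control. On 7 arrays it differed by 0.48 for miR-376a*A minus control (adjusted p = 0.00385), opposite in sign to the representative set. The dimmer 1553346_a_at differed by 0.56 (adjusted p = 0.0644) between miR-376a*G and control on 9 arrays and by 0.77 (adjusted p = 0.00316) on 7. No direction can be given for TNRC6A as a whole.

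**Figure D3:**
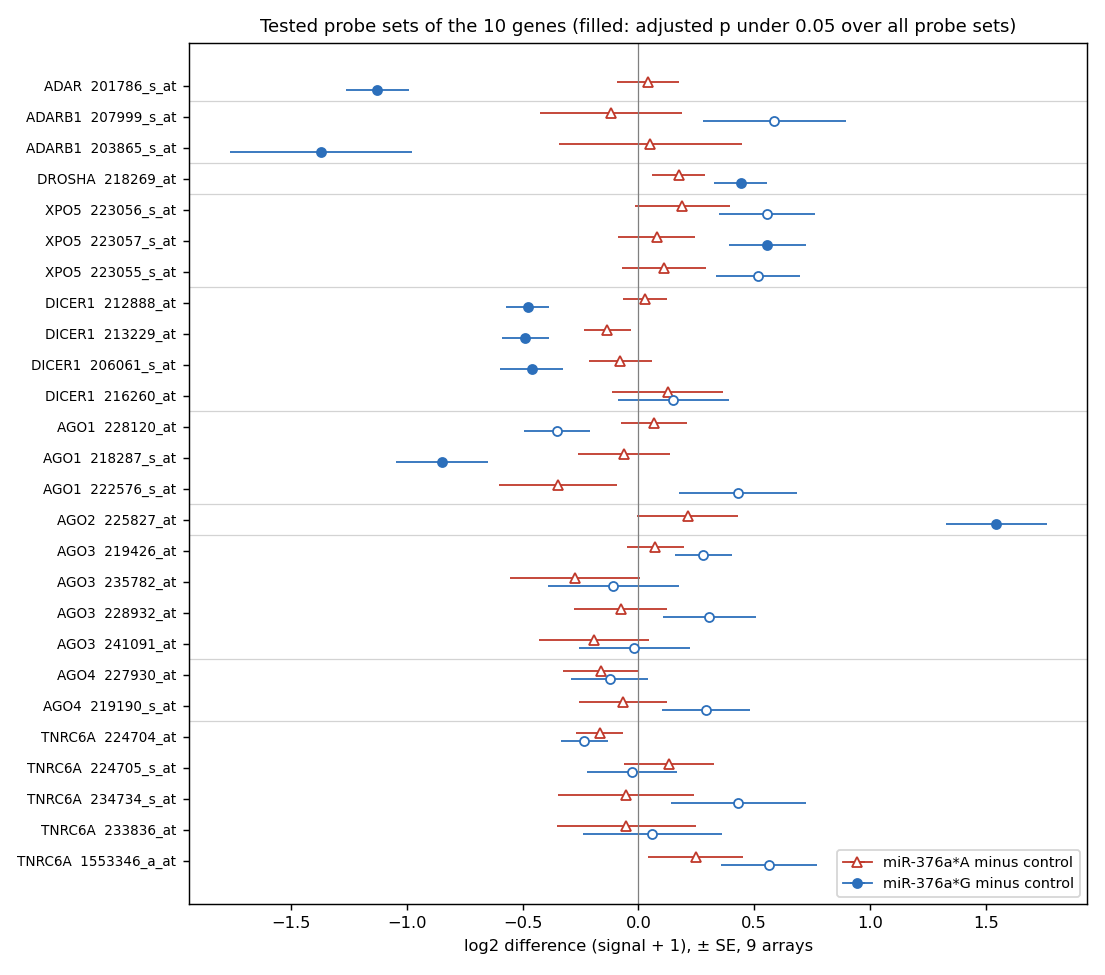
Log2 difference from control (± SE, 9 arrays) of the 26 tested probe sets, one per line and grouped by gene, with triangles for miR-376a*A and circles for miR-376a*G; filled symbols have an adjusted p under 0.05 over all probe sets. No miR-376a*A symbol is filled, 9 miR-376a*G circles are filled, and the circles of ADARB1, DICER1, AGO1, AGO3, AGO4 and TNRC6A fall on both sides of 0.

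Counted over the 10 genes on 9 arrays, AGO2 and DROSHA rose and ADAR and DICER1 fell in miR-376a*G against control, while 6 did not pass. Over all tested genes, 18.0% rose and 15.4% fell in that comparison, so 2 of 10 in each direction is close to the background. The median difference of the members was 0.08, beside 0.12 over all genes. Between the forms, ADAR, DICER1 and AGO1 were higher in miR-376a*A and AGO2 was lower. The background there was 16.4% higher and 21.8% lower, and the medians were -0.12 for the members and -0.14 for all genes. In miR-376a*A against control, 0 of the 10 passed limma's test, 0 of them with an unadjusted p under 0.05, and the background was 0.00% in either direction, with 463 genes at an unadjusted p under 0.05. With limma's array weights, 3 members and 5513 genes passed. The comparisons with control share their control arrays.

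Without the pair of arrays that stood apart, 4 members rose and 3 fell in miR-376a*G against control, beside 31.2% and 25.0% of all genes. ADARB1, DROSHA, XPO5 and AGO2 were higher and ADAR, DICER1 and TNRC6A lower. These are calls of representative sets, and for ADARB1 and TNRC6A other sets were called the other way. The ADARB1 set 203865_s_at differed by -1.59 (adjusted p over probe sets = 0.00873). The TNRC6A sets 1553346_a_at and 234734_s_at differed by 0.77 (adjusted p = 0.00316) and 0.71 (adjusted p = 0.00945). No direction can be given for either gene. In miR-376a*A against control, XPO5 and AGO2 were higher and TNRC6A lower, beside 19.0% higher and 22.9% lower over all genes. Between the forms, ADAR, DICER1 and AGO1 were higher and DROSHA and AGO2 lower, beside 25.7% and 34.0%. In each direction 1 to 4 of 10 members were called, beside 19.0% to 34.0% of all genes.

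Over the 26 tested probe sets on 9 arrays, 3 were higher and 6 lower in miR-376a*G than in control, beside 16.6% and 15.6% of all probe sets. Between the forms, 6 were higher and 2 lower, beside 16.6% and 19.6%. On 7 arrays the counts were 9 higher and 8 lower for miR-376a*G against control (29.1% and 25.1% of all), 8 higher and 7 lower between the forms (25.5% and 32.8%), and 4 higher and 2 lower for miR-376a*A against control (18.2% and 22.0%). Several sets share a gene and are not independent. The counts in the comparisons with miR-376a*G include the dim ADARB1 set 203865_s_at, which passed the filter only through arrays outside miR-376a*G.

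Counted by range, the miR-376a*G arrays of 5 members lay wholly above control and those of 4 wholly below, and 53.4% of all tested genes were apart in this way. Against miR-376a*G, the miR-376a*A arrays of 3 members lay wholly above and those of 5 wholly below, beside 53.5% of all genes. Between miR-376a*A and control all 10 overlapped, and 6.15% of all genes were apart. Complete separation of the miR-376a*G arrays was thus common over the whole array.

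**Figure D4:**
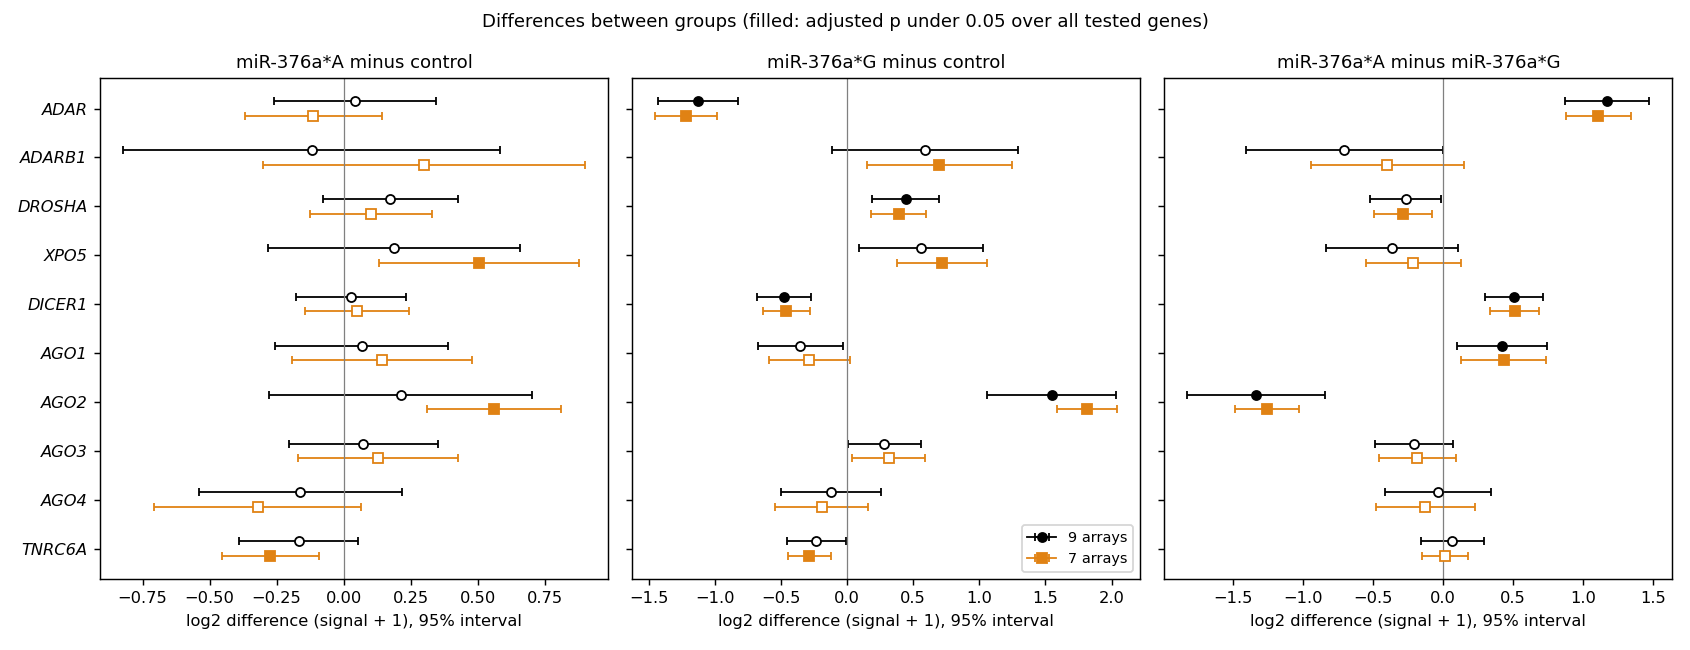
Log2 differences (signal + 1) with 95% intervals for the 10 genes: miR-376a*A minus control, miR-376a*G minus control, and miR-376a*A minus miR-376a*G; circles use 9 arrays and squares the 7 arrays without the pair that stood apart, filled where the adjusted p over all tested genes is under 0.05. ADAR and DICER1 lie below 0 and AGO2 above 0 for miR-376a*G minus control on either set of arrays.

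As a description over the 9 arrays, log2 signals of ADAR and DICER1 ran together (Pearson's r 0.955), and AGO2 ran opposite to ADAR (r -0.964) and DICER1 (r -0.894). AGO3, by its representative set, followed AGO2 (r 0.907), while AGO4 did not (r -0.30). Of the other AGO3 sets, 235782_at and 241091_at were lower on average in miR-376a*G than in control, and 228932_at was higher. These correlations share the 3 miR-376a*G arrays, which set most of the spread. The genes most like ADAR in pattern were CSRP1 (0.989), TRIB1 (0.989) and ARHGEF6 (0.988). Those most like AGO2 were UCHL5 (0.994), LETM2 (0.993) and NCAPD3 (0.992). For DICER1 they were DPY19L3 (0.995), MYO1E (0.995) and SLC15A4 (0.994), and for DROSHA CCT7 (0.983), U2SURP (0.979) and ACAT2 (0.972).

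Further genes of the pathway were counted in 10 lists with 115 genes, of which 91 were tested. On 9 arrays 19 rose and 14 fell in miR-376a*G against control (20.9% and 15.4%), beside 18.0% and 15.4% of all genes. On 7 arrays 33 rose and 19 fell (36.3% and 20.9%), beside 31.2% and 25.0%. Between miR-376a*A and control 0 passed on 9 arrays, and 13 were higher and 17 lower on 7 (14.3% and 18.7%), beside 19.0% and 22.9% of all genes. Between the forms 16 were higher and 21 lower in miR-376a*A on 9 arrays (17.6% and 23.1%), beside 16.4% and 21.8% of all genes. On 7 arrays 23 were higher and 35 lower (25.3% and 38.5%), beside 25.7% and 34.0%. No test of these shares against those of all genes was made. The 25 genes named by rule were each list's tested genes, up to 3, with the smallest p between miR-376a*G and control. That choice favours passing in this comparison, so the count is no support for a change of the lists. On 9 arrays 20 of the 25 passed there. All 20 passed with the same sign on 7 arrays, which are a part of the same 9. On 7 arrays 9 of the 25 passed between miR-376a*A and control, where NCBP1, LIMD1, CNOT6 and TNPO1 were higher and DCP1A, LIN28B, ADAT1, KPNA3 and IFI6 lower. Values below are from 9 arrays unless stated. Genes of a list given without values were named after their values were seen.

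Of 10 tested partners of DROSHA and nuclear RNA-binding proteins, 5 rose and 1 fell in miR-376a*G against control, with a median of 0.29 beside 0.12 over all genes, of which 18.0% rose and 15.4% fell. On 7 arrays 7 of them rose and 1 fell, beside 31.2% and 25.0% of all genes. ILF2, a nuclear protein of double-stranded RNA-binding complexes, rose by 0.60 (adjusted p = 0.000317). NCBP1, the large cap-binding subunit, rose by 0.76 (adjusted p = 0.00159), and SRRT, KHSRP and HNRNPA1 also rose. DDX5, a helicase that joins the DROSHA complex, fell by 0.85 (adjusted p = 0.00163). Of 11 partners of export, dicing and loading, 5 rose and 0 fell (median 0.29), and 7 and 0 on 7 arrays. The shares of all genes beside these counts are the same as for the partners of DROSHA. FKBP4, an HSP90 cochaperone, rose by 1.22 (adjusted p = 0.000298), HSP90AB1, a chaperone of Argonaute loading, by 0.29 (adjusted p = 0.014), and RAN, the GTPase that exportins need, by 0.34 (adjusted p = 0.0159). CDC37 and IPO8 rose as well.

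Silencing factors were mixed. Of 11 tested GW182 partners, 1 rose and 2 fell (median 0.06), beside 18.0% and 15.4% of all genes. On 7 arrays 3 rose and 2 fell, beside 31.2% and 25.0%. AJUBA, a LIM protein found with Argonautes, rose by 0.82 (adjusted p = 0.00519). LSM14A, a P-body protein, fell by 0.39 (adjusted p = 0.0139), and LIMD1, a relative of AJUBA, fell by 1.25 (adjusted p = 0.021). LIMD1 read 299, 678 and 589 for miR-376a*A, 202, 174 and 174 for miR-376a*G, and 684, 370.3 and 326 for control, and on 7 arrays it was higher in miR-376a*A than in control by 0.86 (adjusted p = 0.000179). Of 18 deadenylation and decapping genes, 1 rose and 4 fell (median 0.07), beside 18.0% and 15.4% of all genes. On 7 arrays 3 of the 18 rose and 7 fell, beside 31.2% and 25.0%. DCP1A, an activator of decapping, fell by 1.68 (adjusted p = 0.00213), and CNOT8, a deadenylase, by 0.39 (adjusted p = 0.0249), with CNOT6L and DCP1B. CNOT6, another deadenylase, rose by 0.91 (adjusted p = 0.027). On 7 arrays, in miR-376a*A against control, DCP1A differed by -0.84 (adjusted p = 6.82e-05) and CNOT6 by 0.77 (adjusted p = 0.000424).

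Of 11 tested genes of microRNA tailing and decay, 2 rose and 1 fell (median 0.14), beside 18.0% and 15.4% of all genes. On 7 arrays 3 rose and 1 fell, beside 31.2% and 25.0%. LIN28B, the protein that blocks maturation of let-7 precursors, read 50.1, 9.90 and 15.0 for miR-376a*A, 127, 114 and 125 for miR-376a*G, and 13.8, 44.6 and 41.6 for control. Every miR-376a*G array was above all others, and the pair of arrays that stood apart again read like the opposite group. LIN28B rose in miR-376a*G by 2.00 (adjusted p = 0.0275), and by 1.47 on 7 arrays (adjusted p = 6.85e-05). In miR-376a*A against control it was -0.56 (adjusted p = 0.886) on 9 arrays and -1.74 on 7 (adjusted p = 7.4e-05). TSN, the RNA-binding subunit of the C3PO nuclease, rose by 0.58 (adjusted p = 0.000835), and TUT7, which adds uridines to precursors, fell by 0.50 (adjusted p = 0.00926).

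Among relatives of the editing enzymes, 1 of 4 tested rose and 0 fell (median 0.49), beside 18.0% and 15.4% of all genes. On 7 arrays 2 rose and 0 fell, beside 31.2% and 25.0%. The 1 on 9 arrays was ADAD1, a testis protein with a deaminase-like domain, whose signal was 14.1 to 30.8 on all arrays and differed by 0.80 (adjusted p = 0.0131). ADAT3 and ADAT1, of the tRNA deaminases, differed by 0.59 (adjusted p = 0.0631; 0.0406 on 7 arrays) and 0.39 (adjusted p = 0.287; 0.170 on 7). Of 8 tested ADAR importers and partners 1 rose, TNPO1, the import receptor of ADAR, by 0.47 (adjusted p = 0.0202), while on 7 arrays 4 rose, and 0 fell on either set. DHX9, a helicase that binds ADAR, differed by 0.49 (adjusted p = 0.0577), and by 0.57 on 7 arrays (adjusted p = 0.00972). KPNA3, an importin alpha, differed by 0.78 (adjusted p = 0.0732), and by 0.50 on 7 arrays (adjusted p = 0.0018). The median of the list of importers and partners was 0.30, and the shares of all genes are the same as for the relatives. None of the 3 PIWI genes with a probe set passed the filter. In the imprinted region of chromosome 14 that holds the miR-376 genes, 1 gene was tested, MEG3, with 0.18 (adjusted p = 0.63) between miR-376a*G and control.

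Interferon-stimulated genes were counted because ADAR has an interferon-inducible start. Of 17 tested, 3 rose and 6 fell in miR-376a*G against control, beside 18.0% and 15.4% of all genes, with a median of -0.29. On 7 arrays 4 rose and 8 fell, beside 31.2% and 25.0%. OASL, a relative of the oligoadenylate synthetases, fell by 1.46 (adjusted p = 5.12e-05). IFI6 fell by 2.17 (adjusted p = 7.15e-05), and IFIT1, which binds viral RNA ends, fell by 1.66 (adjusted p = 0.00149). IFI6 read 248, 203 and 156 for miR-376a*A, 66.6, 54.1 and 68.7 for miR-376a*G, and 245, 319 and 300.6 for control, so every miR-376a*G array was lowest. OAS1, IFI44 and HERC5, also of this list, rose. The part of this list in ADAR's lower signal was not tested.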

How the data were processed

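U87 arrays were grouped by their labels, 3 per group. Per the labels' protocols, total RNA was amplified and labelled with biotin-ULS. The authors deposited 1 linear intensity per probe set and array (54675 probe sets), and the submitters' processing notes name GCOS 1.4.0.036, without a summarisation method. The number of arrays limits precision. Gene symbols of probe sets came from GEO's annotation of the platform (41097 had 1 symbol, and 1801 with several were left out). A gene or probe set was tested when its intensity was above the array's median on at least 3 arrays. Linear models (limma 3.58.1, R 4.3.3, eBayes with trend) were fitted to log2(signal + 1) with 3 groups and 6 residual degrees of freedom, with Benjamini-Hochberg adjustment over all tested genes. Steps were tested on simulated data. An exact permutation test of 3 against 3 arrays cannot go below 0.1. Named list genes were the 3 tested members with the smallest p between miR-376a*G and control. Members, lists and tests were chosen with earlier results of these data known. Sequences came from RefSeq; coordinates of the probe sets are not given, since the files name no build. Alternatives covered scaling, filter, pseudocount, probe set choice, array weights, blocking and left-out arrays.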

Additional observations from a re-analysis of the deposited data

How the results depend on the processing

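Without the pair of arrays that stood apart, 3 member genes and 6 probe sets were called between miR-376a*A and control (0 and 0 with them), 7 genes and 17 probe sets between miR-376a*G and control (4 and 9), and 15 probe sets between the 2 forms (8). Over all genes, 5268, 7066 and 7508 were called in these comparisons (41.9%, 56.1% and 59.6%), against 0, 4205 and 4804 (0.00%, 33.4% and 38.2%). Over all tested probe sets the shares were 40.2%, 54.2% and 58.3%, against 0.00%, 32.3% and 36.1%. With array weights, 3 members were called between miR-376a*A and control and 8 between miR-376a*G and control, and 5513, 7865 and 7866 genes in all. ADAR between miR-376a*G and control stayed called in every setting run, and so did AGO2 on its own probe set.

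Deviations from group means were compared between arrays of the same replicate number. In the comparisons with miR-376a*G their correlations were -0.17 to 0.046. Between miR-376a*A and control the correlations were -0.88 to -0.56. Both arrays that stood apart are replicate 1, so pairing cannot be judged between miR-376a*A and control. These arrays also enter the group means used in the comparisons with miR-376a*G, so low correlations there cannot show that pairing is absent. With replicate block, 0, 3 and 3 members were called for miR-376a*A against control, miR-376a*G against control and the forms against each other. Over all genes, 0, 2936 and 3453 were called in the same order. DROSHA between miR-376a*G and control then had an adjusted p of 0.0602 and AGO1 between the forms 0.0849.

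Scaling to the hybridisation controls moved the median of all genes to -0.29 (miR-376a*A minus control), 0.51 (miR-376a*G minus control) and -0.80 (miR-376a*A minus miR-376a*G); 8 members were called between the forms, and 8849 genes. Signs that turned, in log2, for miR-376a*A minus control were ADAR -0.23, DROSHA -0.094, XPO5 -0.076, DICER1 -0.24, AGO1 -0.20, AGO2 -0.054 and AGO3 -0.19. For miR-376a*G minus control they were AGO1 0.042, AGO4 0.27 and TNRC6A 0.17, and for miR-376a*A minus miR-376a*G DICER1 -0.16, AGO1 -0.24 and TNRC6A -0.60 (adjusted p = 0.00178). Centring on array medians (all-gene median -0.12 for miR-376a*G minus control) turned AGO3 to 0.050 and AGO4 to 0.22 between the forms, and quantile normalization turned AGO4 to 0.064.

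Averaging all probe sets of a gene left 2 members and 4319 genes in all called between the forms, with ADARB1 no longer tested. It turned AGO1 to -0.14 and AGO3 to -0.12 for miR-376a*A minus control, DICER1 to 0.13, AGO4 to 0.092 and TNRC6A to 0.11 for miR-376a*G minus control, and TNRC6A to -0.20 between the forms. ADARB1 was also not tested when all 9 arrays had to pass the filter.

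For miR-376a*A minus control, ADAR was -0.11 and ADARB1 0.30 without both arrays, and -0.16 and 0.11 with array weights. Leaving out 1 array at a time gave -0.049 to 0.17 for ADAR, -0.37 to 0.19 for ADARB1 and -0.0059 to 0.059 for DICER1, and -0.13 to 0.10 for AGO4 between the forms. The set 213310_at, chosen after seeing the data, gave -0.0073 for AGO2 between miR-376a*A and control. The causes were not tested.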
